A study of Mus musculus with 20 samples.

Results

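Tnfrsf21 and 8 other genes of the tumour necrosis factor (TNF) receptor family were followed over 20 microarrays of mouse hypothalamic cell lines: 9 of the 18820 genes measured. The set was chosen by measured values: Tnfrsf21 was selected on its change in opposite directions in the 2 lines when serotonin was given, and Tnfrsf10b, Tnfrsf1a, Tnfrsf1b, Tnfrsf11b, Tnfrsf12a, Tnfrsf19, Fas and Ngfr were set beside it as relatives. The probe sets taken were those whose single symbol in the array annotation is one of these genes, and each gene had 1. Changes with serotonin labelled 100 are therefore descriptions of these genes, without a test, and support nothing on their own.

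The lines were mHypoE-46 (E46), known as a line of embryonic hypothalamus, and mHypoA-2/12 (A2/12), known as a line of adult hypothalamus. The labels call E46 sensitive and A2/12 unresponsive to serotonin, and the stated interest of the study was the appetite peptide Npy. Cells near confluence were moved to medium without serum and then left untreated or exposed to serotonin, with 24 h on the labels. Total RNA was hybridised in 5 groups of 4 arrays. For E46 these were untreated controls, cells given serotonin at a dose labelled 100 µg/ml and cells given a dose labelled 1 µg/ml. For A2/12 they were untreated controls and cells given the dose labelled 100 µg/ml, with no group at the labelled 1. Doses are those of the titles; a further label on the E46 serotonin arrays gives them crossed, so the opposite directions of Tnfrsf21 rest on the titles. With the crossed doses its change in E46 at 100 would be 0.07 and the difference between the lines 2.10. Each line is a single cell line, so line and everything else that differs between the 2 cultures cannot be told apart. The labels leave unsaid whether replicate arrays stem from separate cultures, so the p-values reflect only spread among arrays, whose small number limits the precision.

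TNF receptors are membrane proteins with cysteine-rich repeats outside the cell that bind trimeric ligands of the TNF family. Some carry a death domain inside the cell that recruits adaptor proteins and caspases, others recruit TRAF proteins that turn on NF-kB, and a few are decoys that bind a ligand without signalling. In the nervous system the family is known for roles in cell death, axon pruning and inflammation, and Tnfrsf21, a death domain receptor that can bind the amyloid precursor protein App, is known from axon degeneration and oligodendrocyte maturation.

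Levels are deposited log2 values, in which a step of 1 is a 2-fold difference. Pairs of arrays correlated at 0.933 to 0.998. For each group a background was set at the level under which 95% of 1155 odorant or pheromone receptor genes lay, 4.35 to 4.66. All 9 genes lay above it in the 3 E46 groups and in A2/12 controls, and 8 did in A2/12 with serotonin, where Tnfrsf19 lay below. Of 12 measured neuron markers, 7 were above background in the controls of each line, among them Map2 at 10.43 in E46 and 9.62 in A2/12. Gap43 (4.68 and 4.71) was also above background in both. Rbfox3 (4.16 and 4.18), Snap25 (4.12 and 4.14) and Nefl (3.51 and 3.26) were among the neuron markers below it in both. Npy was at 4.45 and 4.31, near background. The fibroblast gene Col1a1 was at 11.72 and 11.59. Of 9 fibroblast and mural markers 7 lay above background in every group, and with serotonin their mean level per array went from a range of 8.72 to 8.82 to a range of 7.14 to 7.74 in E46 and from 9.17 to 9.27 to 7.20 to 7.62 in A2/12. The mean of the neuron markers went from 4.96 to 5.05 to a range of 4.61 to 4.72 in E46 and from 5.11 to 5.23 to 4.75 to 4.83 in A2/12. The astrocyte and progenitor markers (10 of 12 above background in E46 controls and 7 in A2/12 controls) went from 7.78 to 7.87 to a range of 6.98 to 7.13 in E46 and from 6.60 to 6.72 to 6.22 to 6.33 in A2/12. Oligodendrocyte markers (4 of 8 above background in the controls of each line) went from 5.27 to 5.46 to 4.71 to 4.94 in E46 and from 5.93 to 6.16 to 5.57 to 5.70 in A2/12. Endothelial markers (3 and 4 of 7) went from 5.03 to 5.16 to 4.57 to 4.6 and from 5.50 to 5.69 to 5.02 to 5.20. The part of these shifts in the changes below was not tested. In such bulk RNA, fewer cells of a type and less RNA per cell cannot be told apart.

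Promoters of 7 of the 9 genes were matched by symbol in the RefSeq table of mouse build GRCm38.p6, each covering 250 bases before and 50 bases after the annotated start. Tnfrsf10b and Tnfrsf11b had no entry. The 3 shown belong to the matched genes whose responses differed most between the lines. Capitals mark matches to GGGCGG (the GC box) or TGANTCA (the AP-1 site), searched on both strands. The sequences are printed 5′ to 3′ on the gene's strand:
Tnfrsf21: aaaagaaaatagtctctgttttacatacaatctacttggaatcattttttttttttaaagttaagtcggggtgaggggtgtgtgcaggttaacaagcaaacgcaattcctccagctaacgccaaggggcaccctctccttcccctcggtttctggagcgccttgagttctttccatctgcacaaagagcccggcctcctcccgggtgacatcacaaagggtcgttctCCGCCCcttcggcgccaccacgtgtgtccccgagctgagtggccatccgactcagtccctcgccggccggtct
Tnfrsf12a: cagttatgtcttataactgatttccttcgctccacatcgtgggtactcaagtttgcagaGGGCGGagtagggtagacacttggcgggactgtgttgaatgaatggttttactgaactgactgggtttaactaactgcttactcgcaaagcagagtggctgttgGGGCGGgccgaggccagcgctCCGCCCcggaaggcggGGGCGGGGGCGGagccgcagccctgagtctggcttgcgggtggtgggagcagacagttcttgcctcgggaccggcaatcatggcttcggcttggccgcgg
Fas: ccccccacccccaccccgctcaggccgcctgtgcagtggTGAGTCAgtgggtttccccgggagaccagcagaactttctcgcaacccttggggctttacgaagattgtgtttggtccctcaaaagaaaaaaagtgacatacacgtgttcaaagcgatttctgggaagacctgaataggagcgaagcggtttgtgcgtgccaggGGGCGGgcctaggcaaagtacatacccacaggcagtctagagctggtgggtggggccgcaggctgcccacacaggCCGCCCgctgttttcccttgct
The Tnfrsf21 promoter lies at chr17:43016305-43016604 on the + strand, that of Tnfrsf12a at chr17:23677400-23677699 on the - strand and that of Fas at chr19:34290409-34290708 on the + strand. Tnfrsf21 held 1 GC box, 23 bases before the start, and had a GC content of 53.7%. Tnfrsf12a held 5 GC boxes, the 2 nearest the start directly adjoining, and had a GC content of 59.7%. Fas held 2 GC boxes and 1 AP-1 match, 211 bases before the start, with a GC content of 59.0%. Over all 32851 promoters of the table the median GC content was 52.7%, 35.7% held a GC box and 7.81% an AP-1 match. The letters TATAAA (13.6% of all promoters), the CRE TGACGTCA (1.79%), the amino acid response element TGATGNAA (3.97%), the antioxidant element TGACNNNGC (12.4%) and the NF-kB site (8.46%) matched in none of the 8 promoters of the 7 genes. A match is a description of letters, and no match says only that these letters are not in the window.

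Tnfrsf21 (probe set 10445241, Entrez 94185, chromosome 17, 43016555 to 43089188) was low in E46 and high in A2/12 without serotonin and lay between those levels in both lines with it. Its levels in the E46 control arrays were 4.72, 4.80, 5.01 and 4.89, and at the labelled 100 they were 6.86, 6.89, 7.05 and 7.18. At the labelled 1 the E46 arrays read 4.97, 5.10, 4.86 and 4.80. All E46 arrays at the labelled 100 were above all E46 controls, while those at the labelled 1 overlapped the controls. In A2/12 the control arrays read 9.59, 9.45, 9.75 and 9.56, and those with serotonin 7.74, 7.54, 7.65 and 7.33. All A2/12 arrays with serotonin were below all A2/12 controls and above all E46 arrays at the labelled 100.

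The change of Tnfrsf21 in E46 at the labelled 100 was 2.14 ± 0.10 (SE, 4 arrays a group), or 4.4-fold higher, from a group mean of 4.86 ± 0.12 (SD, n = 4) to 7.0 ± 0.15. In A2/12 the change was -2.02 ± 0.10, or 4.06-fold lower, from 9.59 ± 0.12 to 7.56 ± 0.18. By size it stood at rank 134 of 18820 genes in E46 and at rank 405 in A2/12, while the difference between the responses, 4.16 ± 0.14, stood at rank 7. The control level of Tnfrsf21 in E46 was 4.86 against a background of 4.38, so its change there may be compressed. Arrays carry a position number of 5, 7 or 9 in their scan names, which each group spans. The change of Tnfrsf21 in E46 was 2.24, 2.22 and 1.88 within positions 5, 7 and 9, and in A2/12 it was -1.92, -1.92 and -2.21. The letter that goes with the number follows the order of the groups and is shared by no 2 groups of different lines, so letter and line cannot be told apart. Within a line it also goes largely with treatment. E46 controls carry A or B and the labelled 100 arrays B or C, and A2/12 controls carry E or F and the treated arrays F or G. Within letter B, Tnfrsf21 read 4.89 in the E46 control and 6.86 and 6.89 at the labelled 100. Within letter F it read 9.56 in the A2/12 control and 7.74 and 7.54 with serotonin. The part of the letter in the changes was not tested.

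**Figure D1:**
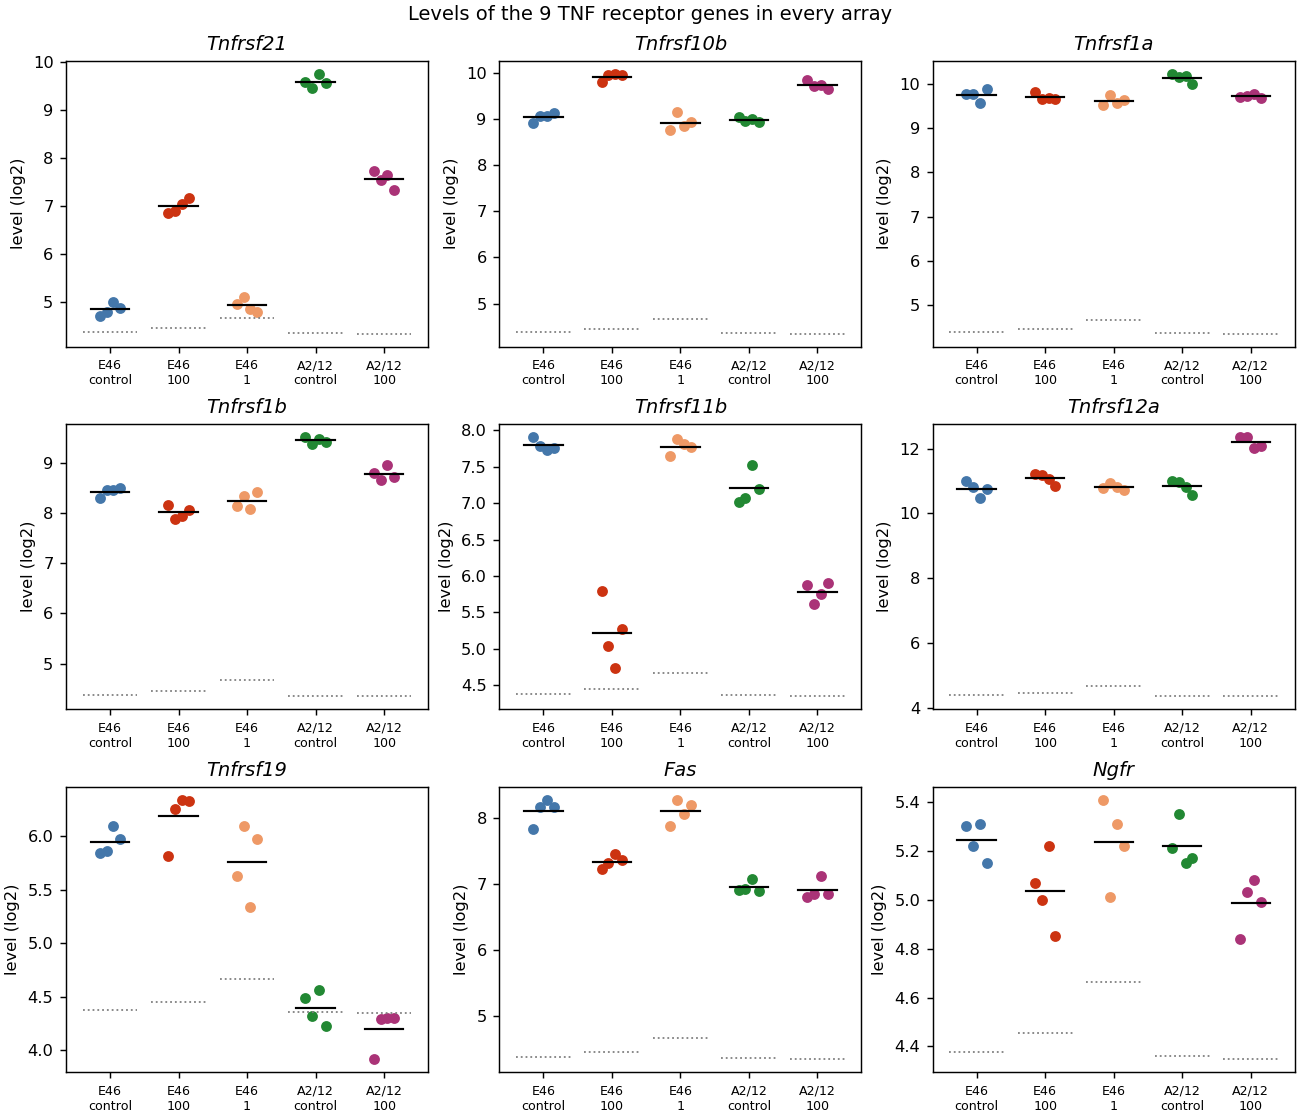
Log2 level of the 9 receptor genes in each of the 20 arrays (points), by group, with group means (black bars) and the background level of the group (dotted). Tnfrsf21 lies at 4.72 to 5.01 in E46 controls, 6.86 to 7.18 in E46 at the labelled 100, 9.45 to 9.75 in A2/12 controls and 7.33 to 7.74 in A2/12 at the labelled 100; each panel has its own axis.

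Without serotonin the lines differed in Tnfrsf21 by -4.73 ± 0.10 (E46 minus A2/12), a level 26.5-fold lower in E46 (limma, adjusted p = 7.30e-19), with every E46 control below every A2/12 control. The rule did not use this comparison itself, but the same control levels enter both changes on which the gene was chosen. The p-value and the rank are therefore no separate evidence. By size the control gap was rank 48 of 18820 genes. At the labelled 100 the gap was -0.57 ± 0.10, or 1.48-fold, as a description. Of 101 genes with a gap of at least 4 between the control lines, 9 had a gap under 1 at the labelled 100: Agtr2, Aox3, Elobl, Enpep, Igfbp4, Medag, Pde7b, Ranbp3l and Tnfrsf21. The others were named after their values were seen. Across the groups the order of Tnfrsf21 ran from A2/12 controls through A2/12 with serotonin, E46 at the labelled 100 and E46 at the labelled 1 to E46 controls, and only the last 2 neighbours had overlapping arrays.

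The other death domain receptors had other patterns. Tnfrsf10b (probe set 10416230, Entrez 21933, chromosome 14, 69767472 to 69784411), the mouse receptor for the death ligand TRAIL, was higher with serotonin in both lines. Its E46 control arrays read 8.91, 9.07, 9.08 and 9.14, and at the labelled 100 they read 9.80, 9.97, 9.98 and 9.95. The A2/12 arrays read 9.04, 8.96, 9.0 and 8.93 without serotonin and 9.85, 9.72, 9.75 and 9.66 with it. In both lines all arrays with serotonin were above all controls. The changes were 0.87 ± 0.08 and 0.77 ± 0.08, and their difference of 0.11 ± 0.11 had a 95% interval from -0.12 to 0.34. The lines did not pass the test for a difference in controls (0.07 ± 0.08, limma adjusted p = 0.540), and at the labelled 1 Tnfrsf10b spanned 8.76 to 9.15 in E46. In order of level the 2 groups at the labelled 100 came ahead and overlapped each other, and the other 3 groups lay below and overlapped as neighbours.

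Fas (probe set 10462603, Entrez 14102, chromosome 19, 34290647 to 34327775), which encodes the receptor of the death ligand Fasl, was lower with serotonin in E46, the reverse of Tnfrsf21 there. Its E46 controls read 7.84, 8.16, 8.27 and 8.16, and at the labelled 100 they read 7.23, 7.32, 7.45 and 7.36. All 4 treated arrays lay below all controls, with a change of -0.77 ± 0.10. In A2/12 the controls read 6.91, 6.92, 7.08 and 6.89 and the arrays with serotonin 6.80, 6.85, 7.12 and 6.85. These groups overlapped, and the change of -0.04 ± 0.10 turned to 0.12 when each array was centred on its median. Fas was 1.16 ± 0.10 higher in E46 than in A2/12 controls (limma, adjusted p = 4.11e-09), so that its order across the groups, with E46 controls and E46 at the labelled 1 (7.88 to 8.28) highest and the A2/12 groups lowest, ran against that of Tnfrsf21 in the controls. Neighbouring groups overlapped within those 2 pairs and were apart on either side of E46 at the labelled 100.

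Tnfrsf1a (probe set 10541895, Entrez 21937, chromosome 6, 125349723 to 125362483), the death domain receptor for TNF, had its highest levels in A2/12 controls, at 10.01 to 10.23. In A2/12 with serotonin it spanned 9.68 to 9.77, below all controls, a change of -0.43 ± 0.07. In E46 the controls spanned 9.57 to 9.90 and the labelled 100 arrays 9.66 to 9.82, which overlap. The change there was -0.05 ± 0.07 and turned to 0.07 with median centring. In controls the E46 level of Tnfrsf1a differed by -0.39 ± 0.07 (limma, adjusted p = 0.000206), and the other 4 groups, with E46 at the labelled 1 lowest (9.52 to 9.76), overlapped as neighbours.

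Ngfr (probe set 10390175, Entrez 18053, chromosome 11, 95568818 to 95587698), the low-affinity neurotrophin receptor with a death domain, was low in every group. It spanned 5.15 to 5.31 in E46 controls, 4.85 to 5.22 in E46 at the labelled 100, 5.01 to 5.41 at the labelled 1, 5.15 to 5.35 in A2/12 controls and 4.84 to 5.08 in A2/12 with serotonin. Only the A2/12 groups were apart, and the changes were -0.21 ± 0.09 in E46 and -0.24 ± 0.09 in A2/12. Control lines did not pass the test for a difference (0.03 ± 0.09, limma adjusted p = 0.859), and every neighbouring pair in the order of its groups overlapped.

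Among receptors without a death domain, Tnfrsf12a (probe set 10448307, Entrez 27279, chromosome 17, 23675445 to 23677449), the receptor of the cytokine TWEAK, was higher with serotonin in A2/12. The A2/12 controls read 11.01, 10.98, 10.81 and 10.57 and the treated arrays 12.37, 12.36, 12.02 and 12.09. All treated arrays were above all controls, with a change of 1.37 ± 0.12. In E46 the controls read 11.00, 10.83, 10.49 and 10.76 and the labelled 100 arrays 11.23, 11.19, 11.06 and 10.85. These overlapped, with a change of 0.31 ± 0.12 and a difference from the A2/12 response of -1.06 ± 0.17. The control lines did not pass the test for a difference (-0.07 ± 0.12, limma adjusted p = 0.695). A2/12 with serotonin stood above the other 4 groups, among them E46 at the labelled 1 (10.71 to 10.93), and those overlapped as neighbours.

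Tnfrsf1b (probe set 10518300, Entrez 21938, chromosome 4, 145212368 to 145246870), the TNF receptor that signals through TRAF proteins, was lower with serotonin in both lines. In E46 it spanned 8.30 to 8.50 in controls and 7.89 to 8.16 at the labelled 100, and in A2/12 9.38 to 9.52 and 8.66 to 8.95. In neither line did the treated arrays overlap the controls, and the changes were -0.41 ± 0.08 and -0.67 ± 0.08. In controls the E46 level of Tnfrsf1b differed by -1.03 ± 0.08, or 2.04-fold lower (limma, adjusted p = 2.32e-09). In 1 A2/12 control array, replicate 4, the mean of 12 microglia and macrophage markers was 5.93, the highest among A2/12 controls, whose lowest was 4.81. Tnfrsf1b read 9.42 in that array and 9.52, 9.38 and 9.47 in the other A2/12 controls. The part of that array in the level of Tnfrsf1b was not tested. In order of level the A2/12 controls, A2/12 with serotonin and E46 controls were apart from each other, and E46 at the labelled 1 (8.09 to 8.41) overlapped both of its E46 neighbours.

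Tnfrsf19 (probe set 10420596, Entrez 29820, chromosome 14, 60963834 to 61046855), a receptor of the developing nervous system that can join Nogo receptor complexes, was detected mainly in E46. It spanned 5.84 to 6.09 in E46 controls and 5.81 to 6.34 at the labelled 100, against 4.23 to 4.56 in A2/12 controls and 3.92 to 4.30 with serotonin. Treated and control arrays overlapped in both lines, with changes of 0.25 ± 0.14 and -0.20 ± 0.14. In controls Tnfrsf19 was 1.54 ± 0.14 higher in E46, or 2.90-fold (limma, adjusted p = 1.84e-08). The A2/12 control mean of 4.4 was close to the background of 4.36, so this fold may be compressed. E46 at the labelled 1 spanned 5.34 to 6.09, and in the order of its groups the only gap without overlap lay between the lines.

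Tnfrsf11b (probe set 10428604, Entrez 18383, chromosome 15, 54250619 to 54278484), which encodes osteoprotegerin, a secreted decoy for the ligands Tnfsf11 and TRAIL, had the largest change of the 9 genes in E46. Its E46 controls read 7.91, 7.78, 7.73 and 7.75 and the labelled 100 arrays 5.80, 5.04, 4.74 and 5.27. The A2/12 controls read 7.02, 7.07, 7.52 and 7.20 and the treated arrays 5.87, 5.61, 5.75 and 5.90. All treated arrays were below all controls in both lines. The changes were -2.58 ± 0.15, or 5.97-fold lower, and -1.42 ± 0.15, or 2.68-fold lower. Their difference was -1.15 ± 0.22, and the size of the E46 change was rank 59 of 18820 genes. The E46 arrays at the labelled 100 had an SD of 0.45, wider than the 0.08 of the controls. In controls Tnfrsf11b was 0.59 ± 0.15 higher in E46 (limma, adjusted p = 0.00400). In order of level the E46 controls and E46 at the labelled 1 (7.64 to 7.88) overlapped, A2/12 controls stood apart below them, and the 2 groups at the labelled 100 were lowest and overlapped each other.

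**Figure D2:**
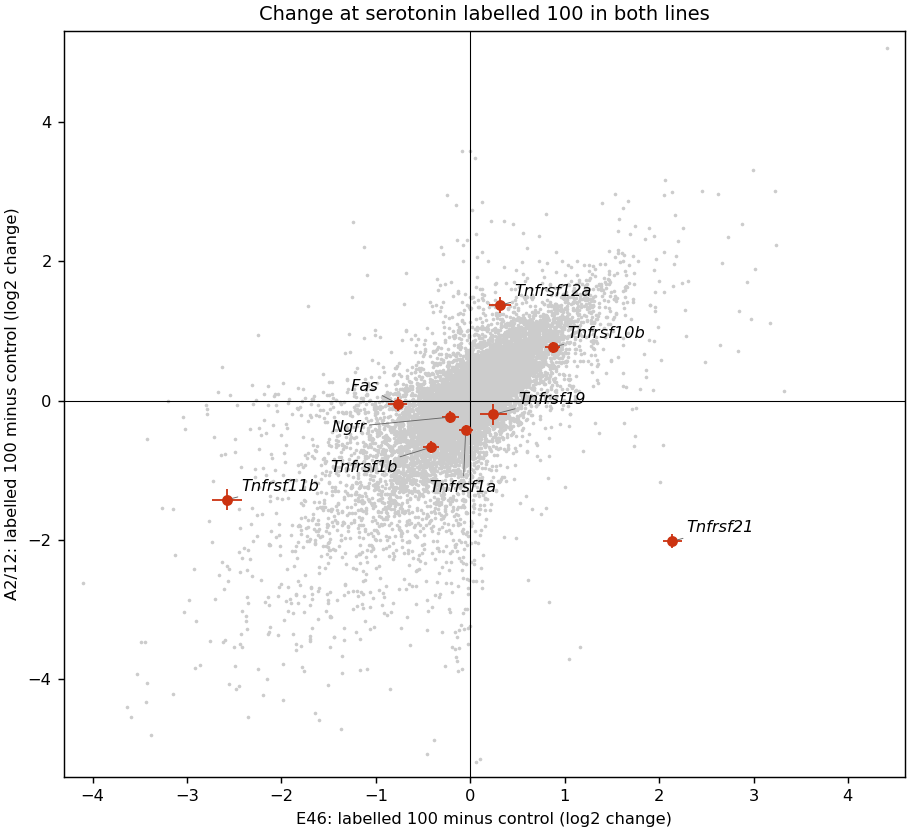
Log2 change at serotonin labelled 100 against controls in E46 (horizontal) and in A2/12 (vertical) for the 9 receptor genes (red, bars are SE, 4 arrays a group) and all other genes (grey). Tnfrsf21 lies at 2.14 and -2.02, in the quadrant of higher in E46 and lower in A2/12, while Tnfrsf10b at 0.87 and 0.77 and Tnfrsf11b at -2.58 and -1.42 each moved in a single direction in both lines.

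Counted together, the E46 arrays at the labelled 100 lay entirely above the controls for 2 of the 9 genes (Tnfrsf21 and Tnfrsf10b), where 21.0% of all genes did so, and entirely below for 3 (Tnfrsf1b, Tnfrsf11b and Fas), against 19.4% of all genes. In A2/12, 2 lay above (Tnfrsf10b and Tnfrsf12a), against 23.4% of all genes, and 5 below (Tnfrsf21, Tnfrsf1a, Tnfrsf1b, Tnfrsf11b and Ngfr), against 19.9%. Because the genes were chosen on these contrasts, nothing is read from those counts. Their median change was -0.05 in E46 and -0.24 in A2/12, beside 0.00 over all genes in each line. Centring each array on its median adds 0.12 to every E46 change at the labelled 100 and 0.16 to every A2/12 change, which turns the sign of Tnfrsf1a in E46 and of Fas in A2/12 and of no other of these changes.

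At serotonin labelled 1, which the selection did not use, 0 of the 9 genes passed the test against E46 controls (limma, adjusted p = 0.305 to 0.986), and 0.0106% of all genes did. At an unadjusted p under 0.05 there was 1, Tnfrsf1b (-0.18 ± 0.08, unadjusted p = 0.0461 by limma). The share of all genes at that threshold was not computed, so nothing is read from it. Tnfrsf21 differed from the controls by 0.07 ± 0.10, with a 95% interval from -0.13 to 0.28 (limma, adjusted p = 0.729). Groups overlapped for all 9 genes. Among all 18820 genes, the arrays at the labelled 1 lay entirely above the controls for 308 and entirely below for 895. Most genes thus overlapped, so nothing is read from the overlap of the 9. The comparison shares the E46 controls with the contrast at the labelled 100.

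Between the control lines, 6 of the 9 genes passed the test. For Tnfrsf21 the test is not separate from the selection, since the control levels enter the changes it was chosen on. The 3 higher in E46 were Tnfrsf11b, Tnfrsf19 and Fas, where 21.1% of all genes were called higher, and the 3 lower were Tnfrsf21, Tnfrsf1a and Tnfrsf1b, where 18.1% were called lower. Each of the 6 was also called whichever single array was left out. Of 19 further TNF receptors on a family list written with earlier results known, 1 was higher in E46 controls (Tnfrsf25, 0.74) and 9 were lower, among them Tnfrsf22 (-1.87) and Tnfrsf23 (-1.84). The count of further receptors higher in E46 controls was 3 without E46 control replicate 1 and 2 without E46 labelled 100 replicate 1 or 3, A2/12 control replicate 1 or 4, or A2/12 labelled 100 replicate 1 or 2. It was 3 with median centring and 4 with quantile normalization, and with each of these 2 scalings 9 were lower. Over all 97 measured genes of 6 pathway lists, 19 were higher and 33 lower in E46 controls. Without E46 control replicate 3 and A2/12 control replicate 4 together, 12 of the 97 were called higher.

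Few genes shared the direction of Tnfrsf21. Of 5759 genes called in both lines at the labelled 100, 5431 moved the same way, 142 were higher in E46 and lower in A2/12 and 186 the reverse. By at least 1 in each line, 5 genes were higher in E46 and lower in A2/12, namely Tnfrsf21, Adh1, Igfbp4, Krt80 and 1810010H24Rik, the last of which lies outside the naming rule and was named after its values were seen. Adh1, an alcohol dehydrogenase that also oxidises retinol, went from 6.23 ± 0.16 to 7.28 ± 0.16 in E46 and from 9.64 ± 0.17 to 5.93 ± 0.40 in A2/12. Igfbp4, which binds insulin-like growth factors, went from 6.21 ± 0.13 to 7.37 ± 0.04 and from 10.41 ± 0.20 to 6.87 ± 0.33. Krt80, a keratin, went from 5.87 ± 0.15 to 6.87 ± 0.20 and from 6.46 ± 0.08 to 5.23 ± 0.11. The responses of these 3 differed between lines by 4.77 ± 0.22, 4.70 ± 0.18 and 2.24 ± 0.19. All 4 named genes had a lower mean in E46 than in A2/12 controls. Those control levels enter the changes by which the genes were picked, so nothing is read from this.

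Over the 20 arrays, the genes with the most similar pattern to Tnfrsf21 among 4401 genes whose group means spanned at least 1 were Cyp27a1 (Pearson's r = 0.978), Parp8 (0.977), Met (0.974), Pax9 (0.972) and Lncpint (0.971). The 20 arrays fall into 5 groups, so these values mostly describe group means, and they are given as descriptions. Cyp27a1, a sterol hydroxylase, had group means of 5.60 in E46 controls, 6.31 at the labelled 100, 7.49 in A2/12 controls and 6.69 with serotonin. Met, the receptor of hepatocyte growth factor, had 8.43, 8.97, 9.67 and 9.24 in the same order. Pax9, a transcription factor, had 7.15, 7.80, 9.82 and 8.26. Each thus lay between the 2 control levels in both lines with serotonin, over a narrower span than Tnfrsf21.

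**Figure D3:**
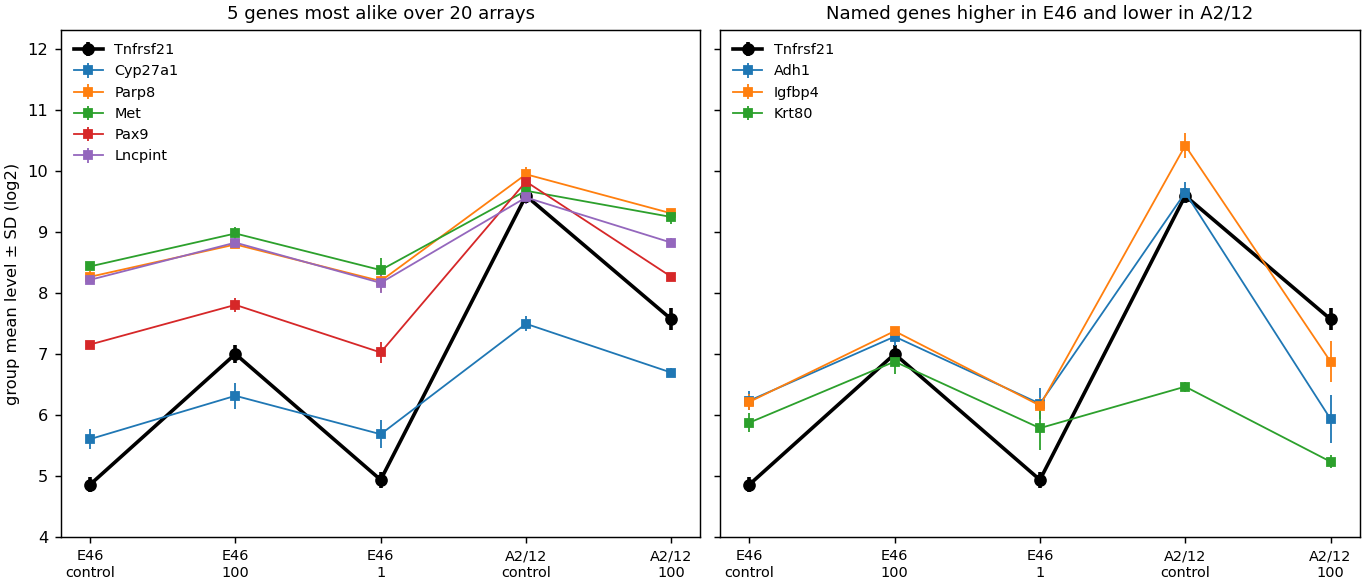
Group mean log2 level with SD (4 arrays each) of Tnfrsf21 (black) beside the 5 genes with the highest correlation to it (left) and beside the 3 named genes that were higher in E46 and lower in A2/12 by at least 1 (right). Tnfrsf21 goes from 4.86 to 7.0 in E46 and from 9.59 to 7.56 in A2/12, while Igfbp4 goes from 6.21 to 7.37 and from 10.41 to 6.87.

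The partners of the receptors were described from 6 lists. Of the 97 measured genes of 113 listed, 26 rose and 22 fell in E46 at the labelled 100 (limma, adjusted p below 0.05), where 20.3% of all genes rose and 19.3% fell. In A2/12, 42 rose and 17 fell, where 24.8% and 21.1% of all genes did. These shares include genes at background. In E46 controls 12775 of 17665 genes other than the odorant and pheromone receptors lay above background. Of the lists, 18 of 18 death signalling genes, 25 of 26 TRAF and NF-kB genes and 7 of 19 ligands did. With median centring the split in E46 became 36 and 14, that is 72.0% of the called genes higher in place of 54.2%, and in A2/12 it became 55 and 16. The median change of the 97 genes was -0.02 in E46 and 0.13 in A2/12. For 32 of them the responses of the lines differed, 9 with the higher change in E46 and 23 with the lower, where 22.0% of all genes differed. At the labelled 1, 0 of the 97 passed (limma, adjusted p = 0.180 to 0.997), where 0.0106% of all genes did. At an unadjusted p under 0.05 by limma there were 13. The share of all genes at that threshold was not computed, so nothing is read from this count.

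Of the 19 other TNF receptors, 4 rose and 3 fell in E46 and 8 rose and 4 fell in A2/12, with medians of -0.05 and 0.06. Over all genes 20.3% rose and 19.3% fell in E46, and 24.8% and 21.1% in A2/12. Tnfrsf22 and Tnfrsf23, close relatives known as decoys for TRAIL, rose in A2/12 by 1.60 ± 0.10 and 2.00 ± 0.10. In E46 Tnfrsf22 rose by 0.43 ± 0.10 and Tnfrsf23 was at 0.19 ± 0.10, which did not pass. Signal shared between probe sets of such relatives was not tested. Edar, a receptor of skin appendage development, fell in both lines (-1.31 ± 0.12 in E46 and -0.97 ± 0.12 in A2/12, as log2 changes ± SE). Eda2r, a receptor for the ligand ectodysplasin, rose in both, by 0.98 ± 0.12 and 0.61 ± 0.12. Tnfrsf25, a death domain receptor of lymphocytes, fell in both (-1.07 ± 0.13 and -0.56 ± 0.13). Relt rose in A2/12 (1.03 ± 0.12) and was at -0.22 ± 0.12 in E46.

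Of the 19 measured ligands, 2 rose and 2 fell in E46 and 4 rose and 2 fell in A2/12. The shares of all genes were 20.3% and 19.3% in E46 and 24.8% and 21.1% in A2/12. With median centring 4 rose and 1 fell in E46. Most of them were at background: 7 of 19 lay above it in E46 controls and 8 in A2/12 controls. App, whose product binds Tnfrsf21, fell in both lines, with changes of -0.41 ± 0.06 from 11.77 ± 0.03 in E46 and -1.13 ± 0.06 from 12.08 ± 0.06 in A2/12. The ligands Tnf, at 3.96 in E46 controls and 4.22 in A2/12 controls, Fasl, at 3.29 and 3.34, and Tnfsf10 (TRAIL), at 3.33 and 3.44, had means below background in every group and were named after their values were seen. Tnf spanned 3.53 to 5.52 in A2/12 controls, with the 5.52 in replicate 4, the array with the highest macrophage marker mean. Tnfsf15 fell in A2/12 (-2.14 ± 0.10), from 6.33 ± 0.17 to 4.19 ± 0.16, a level below background, and was below background in E46, where a fall could not be seen. Tnfsf13b (BAFF, a B cell survival factor) rose in both lines, by 0.89 ± 0.11 and 1.13 ± 0.11, and Tnfsf9 by 0.33 ± 0.12 and 1.16 ± 0.12. Bdnf, the neurotrophin whose precursor binds Ngfr, fell in E46 (-0.29 ± 0.09) and rose by 0.38 ± 0.09 in A2/12. Without E46 control replicate 1 or 2, or without E46 labelled 100 replicate 1, 2 or 3, 1 ligand rose in E46.

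Of the 18 measured genes of death signalling, 4 rose and 5 fell in E46 and 9 rose and 2 fell in A2/12, with medians of 0.01 and 0.33. Among all genes 20.3% rose and 19.3% fell in E46, and 24.8% and 21.1% in A2/12. In A2/12 the rises included Bid, which carries the death signal to mitochondria (1.52 ± 0.07), Cflar, an inhibitor of caspase activation at death receptors (1.19 ± 0.12), and Mlkl, the effector of necroptosis (0.88 ± 0.09). None of these 3 passed in E46, where they were at 0.15 ± 0.07, -0.23 ± 0.12 and 0.23 ± 0.09, and the responses of each differed between the lines (limma, adjusted p = 4.55e-09, 1.57e-06 and 0.000878). Casp6, a caspase linked to axon degeneration, fell in both lines (-0.62 ± 0.09 in each). Casp9, the caspase of the mitochondrial route, fell in E46 (-0.32 ± 0.10) and was at 0.12 ± 0.10 in A2/12. Daxx (0.43 ± 0.10 and 0.61 ± 0.10) and the Fas-binding Faf1 (0.57 ± 0.07 and 0.37 ± 0.07) rose in both. In E46, 2 genes rose without control replicate 1 or labelled 100 replicate 2 or 4, and 3 fell without control replicate 2, 3 or 4 or labelled 100 replicate 4. With median centring 7 rose and 2 fell in E46, and 14 rose in A2/12.

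Of the 26 measured genes of TRAF and NF-kB signalling, 14 rose and 3 fell in E46 and 16 rose and 3 fell in A2/12, with medians of 0.20 and 0.28. Beside these, 20.3% of all genes rose and 19.3% fell in E46, and 24.8% and 21.1% in A2/12. Traf5, Map3k5 and Map3k14 fell in both lines and were named after their values were seen. Relb, an NF-kB subunit, rose by 1.13 ± 0.13 in E46 and 1.29 ± 0.13 in A2/12, and its partner Nfkb2 by 0.77 ± 0.08 and 0.85 ± 0.08. Rela rose by 0.52 ± 0.06 and 0.68 ± 0.06. Traf6, an adaptor ligase, rose by 0.59 ± 0.09 and 0.95 ± 0.09. Nfkbib, an inhibitor of NF-kB, rose by 0.69 ± 0.10 and 1.25 ± 0.10, and Tab2, an adaptor of the kinase Map3k7, by 0.50 ± 0.07 and 0.26 ± 0.07. For Traf6 and Nfkbib the responses differed between the lines (limma, adjusted p = 0.0436 and 0.00486).

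**Figure D4:**
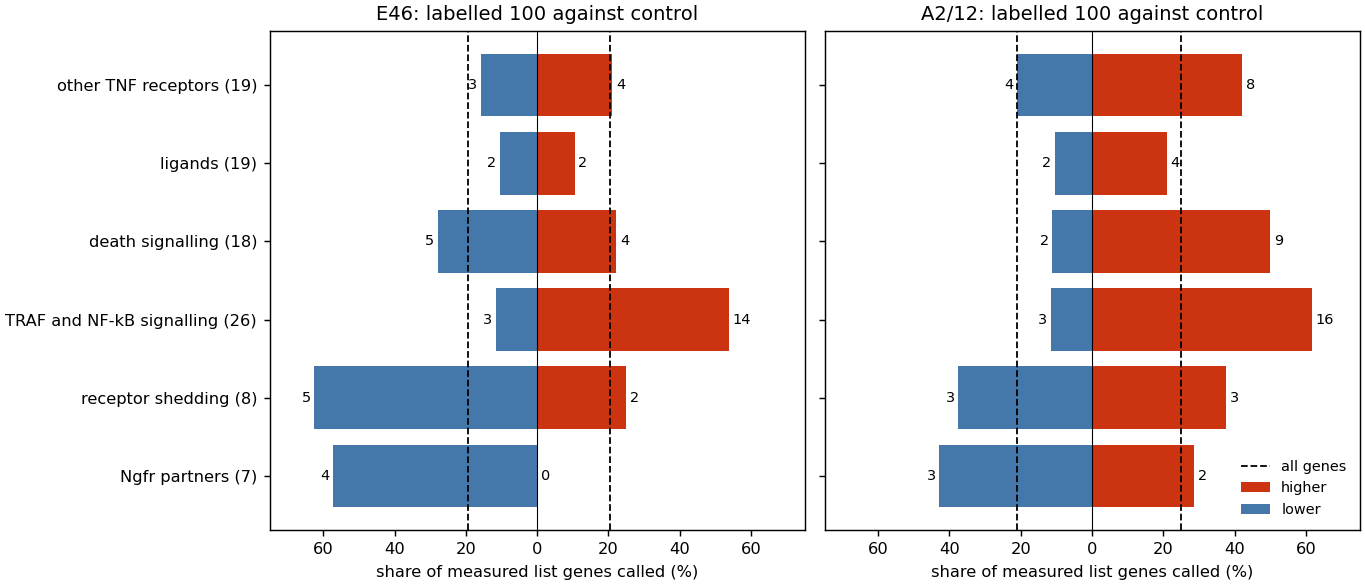
Share of the measured genes of each pathway list that were called higher (red, to the right) or lower (blue, to the left) at serotonin labelled 100 in E46 and in A2/12, with the number of genes at each bar and the share over all genes as dashed lines. The TRAF and NF-kB list, with 14 of 26 genes higher in E46 and 16 of 26 in A2/12, lies farthest to the right in both lines.

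Receptors of the family can be cut from the cell surface, and of the 8 measured genes of receptor shedding 2 rose and 5 fell in E46 and 3 rose and 3 fell in A2/12. For all genes the shares were 20.3% and 19.3% in E46 and 24.8% and 21.1% in A2/12. Bace1 and Adam10, proteases that also cut App, fell in both lines, Bace1 with changes of -1.02 ± 0.08 and -1.29 ± 0.08 and Adam10 with changes of -0.38 ± 0.09 and -1.16 ± 0.09. Mmp14, a membrane-bound matrix protease, fell in both (-0.90 ± 0.09 and -0.81 ± 0.09). Psen2, a subunit of gamma-secretase, rose by 0.89 ± 0.11 and 1.05 ± 0.11. Timp3, an inhibitor of shedding proteases, fell in E46 (-0.61 ± 0.07) and rose by 0.19 ± 0.07 in A2/12. In E46 1 gene rose without control replicate 1, and in A2/12 1 rose without control replicate 1 or 2 or labelled 100 replicate 1 or 4.

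Of the 7 measured partners of Ngfr, 0 rose and 4 fell in E46 and 2 rose and 3 fell in A2/12. By comparison 20.3% of all genes rose and 19.3% fell in E46, and 24.8% and 21.1% in A2/12. Sort1, the co-receptor for neurotrophin precursors, fell in E46 (-0.89 ± 0.10) from 7.98 ± 0.13 and in A2/12 (-2.67 ± 0.10) from 7.56 ± 0.13. Ntrk3, a neurotrophin receptor kinase, fell in A2/12 (-2.08 ± 0.09), from 6.28 ± 0.14 to 4.20 ± 0.01, a level below background, and was below background in E46, where a fall could not be seen. Rtn4r, the Nogo receptor that also pairs with Tnfrsf19, fell in E46 (-0.79 ± 0.10) and rose by 0.47 ± 0.10 in A2/12. Maged1, an intracellular binding protein of Ngfr, fell in both (-0.69 ± 0.06 and -0.52 ± 0.06). Lingo1 fell in E46 (-0.22 ± 0.09) and was at 0.17 ± 0.09 in A2/12, where its control mean of 4.28 lay below background. In A2/12 1 partner rose without control replicate 4.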

How the data were processed

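The authors reduced their scans to log2 values with RMA, per the submitters' processing notes (version not given in the sources used here). This method corrects background, normalizes between arrays and summarises probes. Of 35556 probe sets, 21218 had 1 symbol and were used, 1881 had several and 12457 had none. For 1386 genes with several probe sets, that with the highest mean was taken. Entrez IDs matched 21185 probe sets.

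All 18820 genes were fitted over the 20 arrays by limma 3.58.1 (R 4.3.3) with a mean for each group, leaving 15 residual degrees of freedom, and with Benjamini-Hochberg adjustment over all genes; a gene was called, and is said to have risen or fallen, at an adjusted p below 0.05. The median SE of a change was 0.100, with a 95% interval of ± 0.209. No 2 arrays held identical values. Members and lists were chosen with earlier results of these data known. Genes named are the 9 receptors, up to 4 called genes per list with the smallest adjusted p in each line, the 5 genes most correlated with Tnfrsf21, up to 5 genes called in the same opposite directions by at least 1, and Npy. The code was tested on simulated data. Python 3.11.15 and matplotlib 3.10.9 drew the figures. Alternatives were other eBayes settings, array weights, each line fitted alone, blocks, each position alone, other normalizations, filters and probe set rules, the crossed doses and leaving out arrays.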

Additional observations from a re-analysis of the deposited data

Results flagged for a closer look

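Tnfrsf21 moved up in every E46 array and down in every A2/12 array at the labelled 100, a difference of 4.16 that was not tested, since the gene was chosen for it. In 4 of 45 groups of 4 arrays of the 9 receptors, 1 array stood apart from the others by Dixon's test (critical value 0.829), where chance gives about 1 in 20. These were Tnfrsf19 at 5.81 in E46 at the labelled 100 and at 3.92 in A2/12 with serotonin, and Fas at 7.08 in A2/12 controls and at 7.12 in A2/12 with serotonin.

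Among 34 named genes of the pathway lists, the responses of the lines differed for 20 (limma, adjusted p below 0.05). The 34 were named for the smallest adjusted p in either line, and among all 97 measured genes of the lists the responses differed for 32, where 22.0% of all genes did. Given as E46 change minus A2/12 change, the receptors were Tnfrsf22 (-1.17), Tnfrsf23 (-1.81), Tnfrsf25 (-0.52) and Relt (-1.26), and the ligands Tnfsf9 (-0.83), Tnfsf15 (2.08), Bdnf (-0.67) and App (0.71). In death signalling they were Mlkl (-0.65), Casp9 (-0.45), Cflar (-1.42) and Bid (-1.37), and in NF-kB signalling Traf6 (-0.36) and Nfkbib (-0.57). The shedding genes were Adam10 (0.79) and Timp3 (-0.81). The Ngfr partners were Sort1 (1.78), Ntrk3 (2.04), Rtn4r (-1.25) and Lingo1 (-0.39). For 3 of these genes a fall in 1 of the lines could not be seen, because their control means there lay below background: Tnfsf15 (4.11) and Ntrk3 (4.05) in E46 and Lingo1 (4.28) in A2/12.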

How the results depend on the processing

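In all, 119 results, 17 of which answer a comparison, were recomputed under 37 alternatives, not all of which gave every result. Each line fitted alone gave 72 of the 119, and all 72 stayed within the limits set for calling a result unchanged. Counts still moved within those limits. In E46, 25 pathway genes were higher and 19 lower, in place of 26 and 22. In A2/12 they were 38 and 20, in place of 42 and 17. Genes in opposite directions were 127 and 176, in place of 142 and 186.

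With the crossed doses of the other label, the Tnfrsf21 change in E46 was 0.07 and the difference of responses 2.10. At the labelled 1, 26 pathway genes higher and 22 lower were then called, by construction those of the titled 100. The members were not tested or counted there, since these are the arrays they were chosen on. At the labelled 100 in E46, 0 pathway genes were higher and 0 lower. The responses differed for 15 pathway genes upward and 36 downward, and 0 genes moved in opposite directions either way. Tnfrsf10b in E46 turned to -0.12, and the response differences of Tnfrsf11b and Fas turned to 1.41 and 0.04. The alternative exchanges the 2 groups by construction.
Position 5 alone gave 10 pathway genes higher and 9 lower in E46, 19 higher in A2/12, 3 and 4 for the difference, 9 higher in E46 controls, and 25 and 21 genes in opposite directions. Position 7 alone gave 11 and 14 in E46, 3 and 13 for the difference, 12 and 12 between control lines, and 25 and 85 in opposite directions. Position 9 alone, where a lone array of a group is assumed to vary like the others, gave Tnfrsf21 changes of 1.88 and -2.21, 3 members between control lines, 0 and 1 pathway genes in E46, 5 and 7 in A2/12, 0 and 0 for the difference, 2 and 8 between control lines, and 3 and 3 in opposite directions. These fits have 2, 2 and 1 residual degrees of freedom.
Median centring gave -1.86 for Tnfrsf21 in A2/12 and 14 pathway genes lower in E46. Array weights gave 231 genes higher in E46 and lower in A2/12. Without E46 control 3 and A2/12 control 4, chosen after seeing the data, 12 pathway genes were higher in E46 controls. The Tnfrsf21 value follows by construction from the 0.16 that centring adds to every A2/12 change. Every E46 change at the labelled 100 gains 0.12 in the same way. The cause of the moved counts was not tested.
Arrays of the same replicate number were about as alike as those of different numbers, after group means were taken off. Over 0.1 were 14 of 40 same-number correlations (median -0.014) and 39 of 120 different-number ones (median -0.009). With the replicate number as a block the Tnfrsf21 changes were 2.14 and -2.02. They stay the same by construction, since every group holds each number once. With this block 146 and 183 genes moved in opposite directions.
Leaving out each array in turn gave Tnfrsf21 changes of 2.08 to 2.19 in E46 and -2.08 to -1.94 in A2/12, and a difference of 4.08 to 4.22. Pathway genes called lower at the labelled 1 were 0 to 2, the 2 without E46 labelled 1 replicate 2. Pathway genes called were 19 to 28 higher and 17 to 22 lower in E46, and 37 to 43 and 16 to 20 in A2/12. Genes in opposite directions were 107 to 160 and 156 to 207.
Trended and robust eBayes and both other probe set rules left the direction and the tested calls of the 9 receptors as they were. The directions were fixed by construction. Each receptor has 1 probe set, so the probe set rules return the same levels, and eBayes settings do not alter the fitted changes. Genes in opposite directions were 150 and 185 with that eBayes setting, in place of 142 and 186. With the mean of a gene's probe sets they were 141 and 186, and with the probe set of largest variance 140 and 182. The filter on the upper 50 percent of genes dropped 10 results. Of the 109 it gave, 88 stayed within the limits set for calling a result unchanged. It gave 5 members called between control lines in place of 6. In A2/12 it gave 34 pathway genes higher and 12 lower, in place of 42 and 17.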
